A study of Rattus norvegicus with 43 samples.

Results

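Prolactin is the hormone secreted by lactotrophs, the anterior pituitary cells that expand under estrogen. Expression of Prl and of 4 genes tied to the lactotroph was evaluated in the anterior pituitary of 43 male rats. The 5 genes were Prl, the pituitary transcription factor gene Pou1f1, the dopamine receptor gene Drd2, the angiotensin receptor gene Agtr1b and the prolactin receptor gene Prlr. They were chosen by symbol, as all probe sets that the platform annotation assigns to 1 of these symbols alone. This gave 8 of the 31099 probe sets on the array, and 5 of the 14217 genes that have a probe set of their own. The rats were F2 offspring of an intercross that began with Copenhagen (COP) females and ACI males. Every animal received a 5 mg implant of the synthetic estrogen diethylstilbestrol (DES) under the skin at 9 weeks of age and was sacrificed after 12 weeks of treatment, at 21 weeks. Bromodeoxyuridine (BrdU), which is incorporated by dividing cells, was injected at 50 mg/kg 4 hours before sacrifice. No untreated animals were among the samples, so effects of DES itself were not measured. The design text describes a selection by pituitary weight, 22 heavy and 21 light extremes, but the labels do not tell which animals were which. All 43 therefore formed 1 group, and the comparisons below are between genes across animals.

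Lactotroph activity is held down by dopamine from the hypothalamus, which acts through the D2 receptor encoded by Drd2. This receptor couples to inhibitory Gi and Go proteins, lowers cyclic AMP and opens inwardly rectifying potassium channels. Angiotensin II, through receptors such as the one encoded by Agtr1b, stimulates prolactin release. POU1F1, also called Pit-1, is required for lactotrophs, somatotrophs and thyrotrophs and activates the genes for prolactin, growth hormone and the beta subunit of thyrotropin. The prolactin receptor signals through JAK2 and STAT5, and exists in long and short forms made by alternative splicing.

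The sequence upstream of the annotated start is shown for Prl, the target gene of POU1F1 among the 5, and for Drd2, the gene that varied against Pou1f1 in these animals. Each is 250 bases long, 5′ to 3′ on the strand of the gene, from RefSeq with assembly GRCr8. Prl lies at chr17:38298218-38298467 on the minus strand and Drd2 at chr8:58605153-58605402 on the plus strand. Capitals mark matches of the POU1F1 core TATNCAT, where N is any base, on either strand.
Prl: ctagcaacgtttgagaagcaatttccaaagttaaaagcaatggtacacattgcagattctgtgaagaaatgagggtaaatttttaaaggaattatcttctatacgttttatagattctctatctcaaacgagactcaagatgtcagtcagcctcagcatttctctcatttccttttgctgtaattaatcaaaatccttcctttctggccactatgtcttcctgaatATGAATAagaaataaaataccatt
Drd2: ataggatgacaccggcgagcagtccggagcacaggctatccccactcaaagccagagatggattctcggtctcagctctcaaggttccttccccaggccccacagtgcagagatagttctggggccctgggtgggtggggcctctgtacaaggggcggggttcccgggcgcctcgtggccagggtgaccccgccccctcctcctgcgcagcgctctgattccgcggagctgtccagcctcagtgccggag
The Prl sequence held 1 match, ATGAATA, which reads as the core on the opposite strand and covers positions -24 to -18 from the annotated start. No match was found in the windows of Drd2, Agtr1b (chr2:104849263-104849512, minus strand) or the 2 annotated starts of Prlr (chr2:60861515-60861764 and chr2:60909409-60909658, plus strand). The core occurred in 8.73% of 33469 promoter windows of the same length. Neither the octamer ATGCAAAT, found in 1.56% of all windows, nor the palindromic estrogen response element, GGTCA and TGACC with 3 bases between them, found in 0.0239%, occurred in any window of these 4 genes. GC content was 33.6% in the Prl window and 66% in the Drd2 window. A match is a run of letters and not a measured binding site. Enhancers farther upstream and all sequence downstream of the annotated start lie outside these windows. The annotated starts were not checked against measured starts of transcription. Pou1f1 was not in the promoter table used.

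Values are log2(intensity + 16), where intensity is the linear brightness of a probe set on a 1-colour Affymetrix rat expression array. The added 16 shrinks the differences of dim probe sets. The array of animal 43 stood apart from the others. Its mean correlation with the other arrays was 0.927, against 0.967 to 0.976 for the remaining 42. The difference between 3′ and 5′ probe sets, a measure of RNA integrity and labelling, was 1.97 log2 for actin in animal 43, against 1.26 to 1.67 in the other animals. For GAPDH it was 0.45 against 0.05 to 0.29. Where the call of a named gene was lost without this animal, this is stated. The filter on low values was a mean log2 above 7.16, the median over all non-control probe sets. Every listed gene of somatotrophs (5 of 5), thyrotrophs (2 of 2) and gonadotrophs (5 of 5) passed it. The corticotroph genes Pomc, Tbx19 and Avpr1b and the posterior lobe genes Avp, Oxt and Gfap did not pass it. Pcsk2 of the corticotroph and melanotroph list (1 of 4) did pass. So did Nefl, Mbp and Snap25 of the posterior lobe and neural list (3 of 6). Each gene was read by 1 probe set, its brightest with that symbol alone, so not passing does not show a cell type absent. In a whole gland, fewer cells of a type and less RNA per cell cannot be told apart.

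Prl, measured by probe set 1398278_at, exhibited little spread over the 43 animals. Its intensity ran from 43106 through a median of 50863 to 72288, a range of 1.68-fold. On the log2 scale the mean was 15.61 ± 0.14 (SD, n = 43). Animal 43 was highest at 16.14, clear of animal 32 at 15.79, and animals 15 and 7 were lowest, both at 15.40. Without animal 43 the range was 1.32-fold and the SD 0.11. The SD of Prl exceeded that of 50% of the 28 other probe sets within 0.5 log2 of its mean. Saturation of this very bright probe set was not assessed.

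Pou1f1 was measured by 2 probe sets. For 1369761_at, the brighter of them, intensity ran from 4996 through a median of 6911 to 12898, and the mean log2 was 12.78 ± 0.23 (SD, n = 43). For 1369762_at it ran from 4740.4 through a median of 6054 to 11878, with a mean log2 of 12.59 ± 0.22. Animal 43 was highest in both, at 13.66 and 13.54. The next highest animals were animal 20 at 13.12 in the former and animal 38 at 12.98 in the latter. Animals 2 and 8 were lowest in 1369761_at, at 12.29 and 12.30. The range of 2.58-fold in that probe set became 1.78-fold without animal 43. The 2 probe sets ranked the animals much alike (Pearson r = 0.941, Spearman rho = 0.915, n = 43, permutation p = 1e-05 for each, the smallest that 100000 permutations can give), also without animal 43 (r = 0.911).

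Drd2, measured by 1368708_a_at, had intensities from 1971 through a median of 4455 to 6187, with a mean log2 of 12.10 ± 0.29 (SD, n = 43). Animal 43 was lowest at 10.96, and the next lowest was animal 29 at 11.67. Animals 7 and 13 were highest at 12.60 and 12.45. Animal 43 lay 0.71 log2 below animal 29 and was set apart for Drd2 by the following rule. A mixture of 2 normal components had a lower Bayesian information criterion than 1 component by 10.9, past the threshold of 10. For Prl and Pou1f1 the same criterion was lower by 7.79 and 8.00, below the threshold, with animal 43 again the lone member of the small component. A component of 1 animal has no spread of its own, so the criterion does not show a separate cluster. It served only as the rule by which animal 43 was left out of pairs with Drd2 and kept in the others. Without animal 43 the range of Drd2 fell from 3.14-fold to 1.91-fold. Distances of animal 43 were measured from the mean of the other 42 animals in units of their SD. They were -5.11 for Drd2, 4.86 for Prl, and 4.72 and 5.83 for Pou1f1 1369761_at and 1369762_at.

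Agtr1b, measured by 1369439_at, had the largest SD of the 5 genes. Intensity ran from 92.9 through a median of 201 to 695, and the mean log2 was 7.80 ± 0.60 (SD, n = 43). Animal 38 was highest at 9.47 and animal 35 next at 9.12, and the other 41 animals lay at or below 8.72. Animals 15 and 41 were lowest, at 6.77 and 6.83. The range was 7.49-fold and did not depend on animal 43, which lay at 7.89. The SD exceeded that of 97.8% of 3928 probe sets within 0.5 log2 of its mean. The same share was 93.2% of 854 for Drd2 and 83.2% of 524 for Pou1f1 1369761_at. How far the selection of weight extremes widened any spread was not tested.

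Prlr was measured by 3 probe sets whose values over animals were weakly related at most. The brightest, 1370384_a_at, had intensities from 270.3 through a median of 531 to 817 and a mean log2 of 9.10 ± 0.33 (SD, n = 43). Animal 10 was lowest at 8.16, well below animal 17 at 8.58, and animal 41 was highest at 9.70. The SD exceeded that of 88.3% of 3785 probe sets of like brightness, against 29.1% of 3916 for 1370789_a_at and 31.2% of 5049 for 1369493_at. Probe set 1370789_a_at ranged from 131 through a median of 228 to 331, with a mean log2 of 7.92 ± 0.25. Animal 41 was highest there too, at 8.44. Probe set 1369493_at, at 23.2 through a median of 76 to 119 and a mean log2 of 6.44 ± 0.45, did not pass the filter, so 7 of the 8 probe sets passed. Over the 43 animals, 1370384_a_at and 1370789_a_at correlated at r = 0.360 (permutation p = 0.0174) and rho = 0.290 (p = 0.0608). The dim probe set correlated with them at r = 0.0417 (permutation p = 0.792) and -0.104 (p = 0.508). Which receptor form each probe set reads was not determined here. In the plot of the spread of the 8 probe sets, the wide range of Agtr1b and the place of animal 43 can be compared directly.

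**Figure D1:**
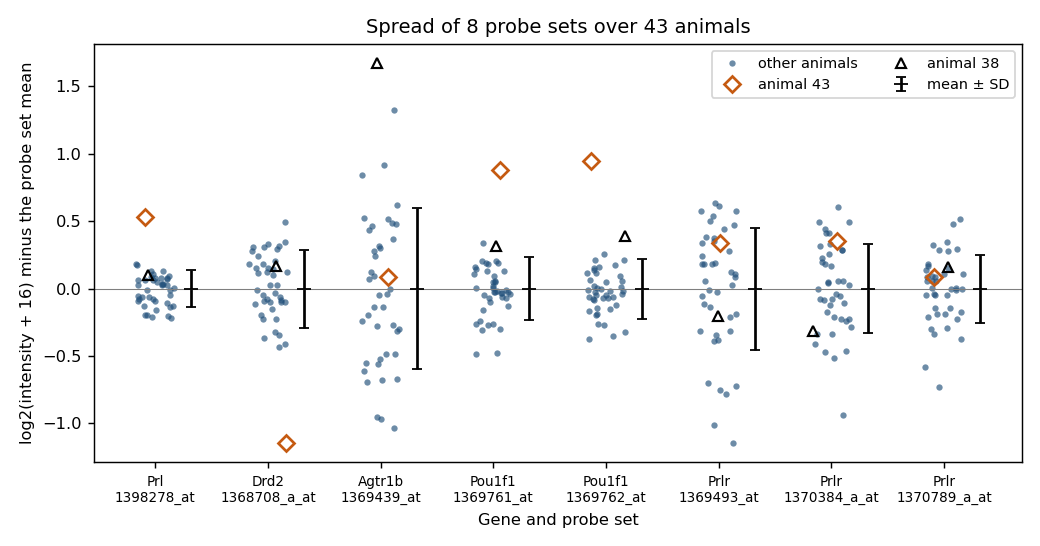
Each point is 1 animal's log2(intensity + 16) minus the mean of that probe set, for the 8 probe sets of the 5 genes, with the mean ± SD beside each set. Animal 43 (diamond) is highest in Prl and in both Pou1f1 probe sets and lowest in Drd2, while animal 38 (triangle) is highest in Agtr1b, the gene with the largest SD (0.60).

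Relations between the 5 genes were tested over animals for all 10 pairs of their brightest probe sets. Pearson r and Spearman rho had 2-sided permutation tests with Benjamini-Hochberg adjustment over the 10 pairs. Since the rule above set animal 43 apart for Drd2, pairs with Drd2 used the other 42 animals. Drd2 was lower in animals in which Pou1f1 was higher (r = -0.527, p = 0.000380, adjusted p = 0.00380; rho = -0.588, p = 6e-05, adjusted p = 0.000600; n = 42). The inverse relation had r = -0.532 without animals 7 and 29, which lay farthest from the Drd2 median. With animal 43 included r was -0.699. In the limma regression over all 43 animals, the slope of Drd2 on Pou1f1 was -0.87 ± 0.14 (SE) log2 per log2, and -0.64 without animal 43. The second Pou1f1 probe set gave r = -0.507 with Drd2 over 42 animals.

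Many genes of this series step between animals 22 and 23 in the numbering of the labels. No label says what the numbers stand for, and the step was known from earlier results of these data. It divides the animals into 22 and 21, the same numbers as the heavy and light extremes in the design text. No label ties the numbers to weight, so no class was assigned, and what the step stands for cannot be told from these data. The step held 28.4% of the variance of Drd2, 28.7% of that of Agtr1b, 14.7% of that of Pou1f1, 7.41% of that of Prl and 3.75% of that of Prlr. Within animals 1 to 22 the relation of Drd2 and Pou1f1 was r = -0.561, and within animals 23 to 42 it was r = -0.224; the difference between these values was not tested. With the step regressed out, r was -0.428 (adjusted p = 0.0481), while the rank test did not pass (rho = -0.428, adjusted p = 0.0526). With a smooth trend over animal numbers regressed out r was -0.508 (adjusted p = 0.00610). When the median of each array was subtracted, r was -0.368 and no longer passed (adjusted p = 0.0834).

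Prl was higher in animals with higher Pou1f1 by Pearson r (0.462, permutation p = 0.00415, adjusted p = 0.0207, n = 43), but did not pass by rank (rho = 0.246, p = 0.112, adjusted p = 0.280). The relation rested on animal 43. Without it r was 0.168 (adjusted p = 0.482), and without animals 15 and 43, the farthest from the Prl median, it was 0.170. Within animals 1 to 22 r was 0.120, within animals 23 to 43 0.623 and within animals 23 to 42 0.0520. Under quantile normalization its sign turned (r = -0.242, adjusted p = 0.283). The remaining 8 pairs did not pass. Their r lay between -0.222 (Drd2 and Agtr1b) and 0.259 (Agtr1b and Pou1f1), with adjusted p from 0.310 to 0.751. Prl and Drd2, hormone and inhibitory receptor, had r = -0.204 (adjusted p = 0.322, n = 42), and r = -0.500 when animal 43 was included. The scatter of these genes against Pou1f1 shows how far animal 43 lies from the others.

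**Figure D2:**
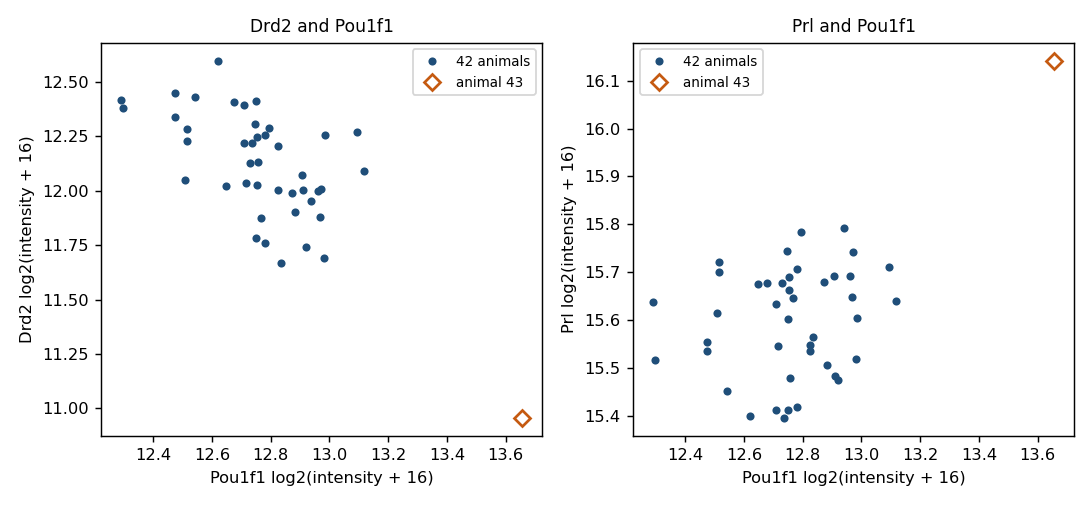
Drd2 (left) and Prl (right) against Pou1f1, each axis log2(intensity + 16) of the brightest probe set, 1 point per animal. Among the 42 filled animals Drd2 declines as Pou1f1 rises (r = -0.527) and Prl has no clear slope (r = 0.168), and animal 43 (diamond) lies outside the range of the others in both plots.

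**Figure D3:**
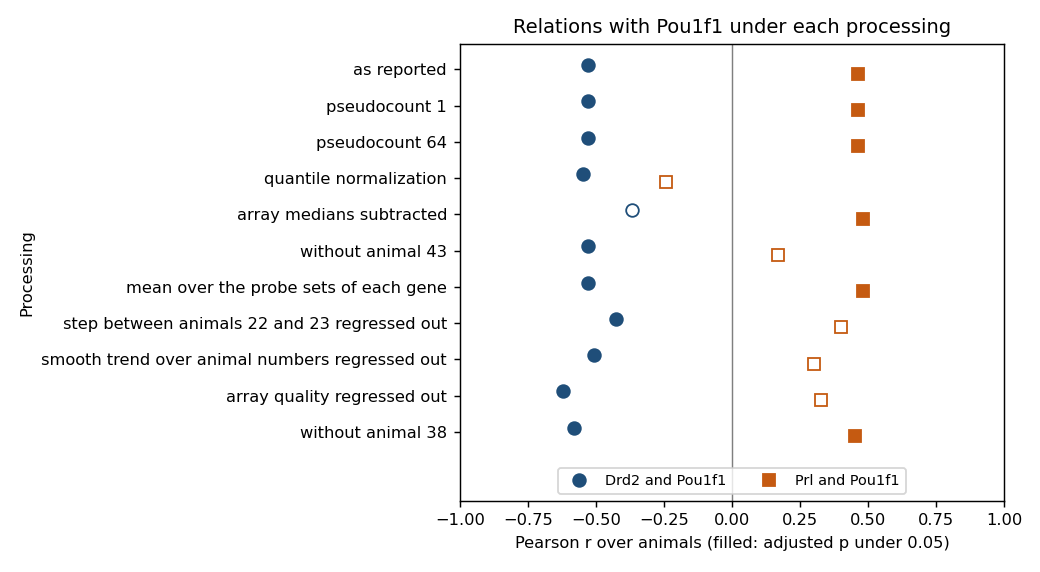
Pearson r of Drd2 with Pou1f1 (41 or 42 animals) and of Prl with Pou1f1 (42 or 43 animals) under each way of processing the values, filled where the adjusted p of r over 10 pairs was under 0.05. The values of Drd2 lie between -0.621 and -0.368, while that of Prl lies at 0.168 without animal 43 and at -0.242 under quantile normalization.

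All probe sets that passed the filter were then regressed on each of the 5 genes with limma, and a probe set was called at an adjusted p under 0.05 over all those tested. The genes most like each of the 5 in their pattern over animals, and the members of 18 lists of related genes and cell type markers, are described from these regressions. The correlations share arrays and animals, and say nothing of shared control.

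On Prl, 2971 of 15521 probe sets were called (19.1%), 1215 of them higher with Prl (7.83%) and 1756 lower (11.3%). Of the 7 probe sets of the other 4 genes, 4 were called: Drd2 (r = -0.500, limma adjusted p = 0.00797), both of Pou1f1 (r = 0.462 and 0.484) and the dim Prlr set 1369493_at (r = 0.383, adjusted p = 0.0455). None of the 7 was called without animal 43, where 81 probe sets were called in all (0.522%), 78 of them among the 2971. The pattern of Prl was most like that of COX1, a mitochondrially encoded subunit of cytochrome oxidase (r = 0.948), and of the ribosomal protein genes Rps29 (r = 0.937), Rpl27a (0.921), Rpl5 (0.919) and Rps6 (0.910). For these 5 genes r was between 0.857 and 0.918 without animal 43. The lowest r belonged to Kansl1, which encodes a scaffold of a histone acetyltransferase complex (r = -0.792; -0.647 without animal 43), followed by Snx9 (-0.709), Tsr3 (-0.707), Nabp2 (-0.685) and Tpm3 (-0.683). Of these 5, Kansl1 alone was called without animal 43.

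Prl moved with the brightness of the brightest probe sets. Against the mean of the 100 brightest other probe sets, each with a mean log2 of at least 14.66, Prl had r = 0.868 and rho = 0.814 over 43 animals (permutation p = 1e-05 for each, the smallest possible; adjusted p = 0.000200 over 20 relations of the genes with array measures). Without animal 43 the values were 0.800 and 0.800. All 100 had a positive r with Prl, with a median of 0.746 against -0.0613 over all probe sets tested, and 48 of the 50 probe sets with the highest r were among them. Under quantile normalization, which gives the brightest ranks of every array the same values, the SD of Prl fell to 0.03 and 0 probe sets were called by limma (0.0%; 1173 at an unadjusted p under 0.05). COX1 then had r = 0.251, and the sign turned for Rps29 (-0.194), Rps6 (-0.0523), Kansl1 (0.0315), Snx9 (0.155), Tsr3 (0.0410) and Tpm3 (0.203). When array medians were subtracted, COX1 and Rps29 had r = 0.951 and 0.943. The part of the array scale in the pattern of Prl was not tested.

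**Figure D4:**
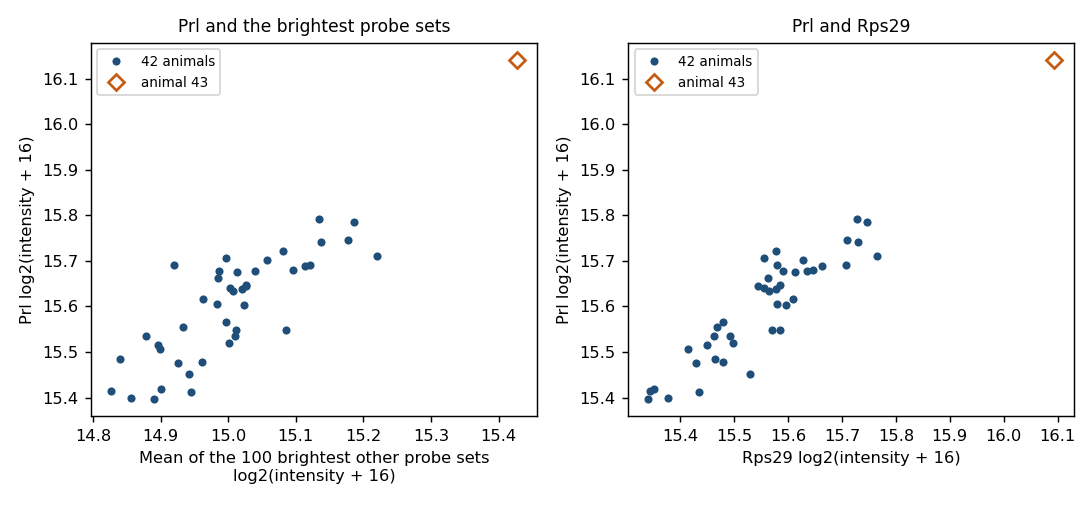
Prl against the mean of the 100 brightest other probe sets (left) and against Rps29 (right), all as log2(intensity + 16), 1 point per animal with animal 43 as a diamond. Prl follows the brightest probe sets (r = 0.868; 0.800 without animal 43) and Rps29 (r = 0.937; 0.902 without animal 43).

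No list gave a call for Prl without animal 43, where 0.522% of all probe sets were called. The same held under quantile normalization, with 0.0% of all called. The calls that follow are over 43 animals, where 19.1% of all probe sets were called. Among genes of dopamine receptor and Gi signalling, 2 of 18 were higher with Prl and 3 lower, with Prkacb, a catalytic subunit of protein kinase A, at r = 0.583 and the adenylyl cyclase gene Adcy6 at -0.416. Of 10 genes of prolactin receptor signalling, 2 were lower: Pias3, an inhibitor of STAT3 (r = -0.530), and the phosphatase gene Ptpn11 (-0.489). Pcna was higher (r = 0.533) and Ccna2, Mcm6 and Mcm2 were lower (-0.549, -0.557 and -0.555) of 18 proliferation genes. The calls in the other lists were Agtr1a of 4 renin-angiotensin genes (higher), Fgfr1 and Pgr of 12 other receptors (lower), Six6 of 6 lineage factors (lower) and Tshb of 4 other POU1F1 targets (higher). Among markers of other cells they were Cga, Anxa1, Emcn, Tek, Hbb and Snap25 (higher) and Pcsk2 and Mbp (lower). Of the 23 listed members of the prolactin family and growth hormone, 19 had a probe set and only Gh1 passed the filter, with r = 0.319 and no call. No gene of the somatotroph, macrophage or fibroblast lists was called.

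On Drd2, 5979 of 15521 probe sets were called (38.5%), 3429 higher (22.1%) and 2550 lower (16.4%), so a call alone sets no gene apart. Of the 7 probe sets of the other 4 genes, 3 were called: the 2 of Pou1f1 and Prl. Without animal 43, 2457 probe sets were called (15.8%), 2138 of them among the 5979, and of the 7 only the 2 of Pou1f1. With the step regressed out 29.3% were called and with the trend 17.7%. The gene most like Drd2 was Atp11a, which encodes a phospholipid flippase (r = 0.856; 0.774 without animal 43). Next came Drd4, the gene of the dopamine D4 receptor (0.852; 0.810 without animal 43), then Larp6, an RNA-binding protein gene (0.846), Cxxc5 (0.845) and Maco1 (0.833). Drd4 had r = 0.791 within animals 1 to 22 and 0.674 within animals 23 to 42. Its probe set carries the suffix _s_at, used by the manufacturer where probes match several transcripts, so a contribution of another transcript cannot be told apart. At the other end stood Trappc13, of the TRAPP trafficking complex (r = -0.821; -0.687 without animal 43), Echdc1 (-0.820), Htatsf1 (-0.812), Apool (-0.808) and the granzyme inhibitor gene Serpinb9 (-0.807). Each of these 10 genes was called without animal 43 and with the step or the trend regressed out.

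Among 18 tested genes of dopamine receptor and Gi signalling, 7 were higher and 2 lower with Drd2. The median r was 0.199 against 0.0491 over all probe sets tested. Of all probe sets, 38.5% were called on Drd2, and 15.8% without animal 43. Beside Drd4, the adenylyl cyclase genes Adcy2 (r = 0.739; 0.678 without animal 43) and Adcy6 (0.669; 0.488 without animal 43) and the Gi subunit gene Gnai2 (0.498; 0.195 without animal 43) were higher. Gnai2 was not called without animal 43 (adjusted p = 0.408), where 3 genes of the list were higher and 1 lower. Drd1, Drd3 and Drd5 did not pass the filter. In prolactin receptor signalling 3 of 10 genes were higher, Stat3 (r = 0.611), Pias3 (0.612) and Ptpn11 (0.590), and Jak2 was lower (-0.431). Without animal 43 only Stat3 of this list was called (r = 0.457, adjusted p = 0.0163). Stat3 had r = 0.0551 within animals 1 to 22 and 0.337 within animals 23 to 42. Its limma adjusted p was 0.0155 with the step and 0.168 with the trend regressed out. Of 4 renin-angiotensin genes, Enpep, which cleaves angiotensin II, Atp6ap2, the prorenin receptor gene, and Agtr1a were lower (-0.473, -0.498 and -0.350), with no call without animal 43. Other receptors gave 3 higher and 2 lower of 12. Fgfr1, a fibroblast growth factor receptor gene, had the highest r of the list (0.685) and was not called without animal 43 (r = 0.392, adjusted p = 0.0898). The GABA-B receptor gene Gabbr1 (r = 0.550; 0.652 without animal 43) was not called with the step regressed out (adjusted p = 0.142). Of 6 lineage factors, Six6 (0.750; 0.570 without animal 43) and Pitx1 (0.417; 0.0817 without animal 43) were higher and Nr5a1 was lower (-0.475; -0.395 without animal 43), and Pitx1 was not called without animal 43 (adjusted p = 0.780).

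Several markers of other hormone cells varied against Drd2, where 38.5% of all probe sets were called. Of 5 gonadotroph genes 4 were lower, Cga (r = -0.655), Fshb (-0.547), Gnrhr (-0.487) and Nr5a1 (-0.475), and all 4 were called without animal 43. With the step between animals 22 and 23 regressed out, only Cga was (adjusted p = 0.0141). Tshb and Trhr, the 2 thyrotroph genes, were lower (-0.598 and -0.412), as were Gh1 (-0.552) and Dlk1 (-0.463) of 5 somatotroph genes; with the step regressed out Gh1, Dlk1 and Tshb were not called. Trhr, which is also in the list of other receptors for regulators of lactotrophs, was not called without animal 43 (r = -0.308, adjusted p = 0.147). Tshb and Gh1 were also the 2 called of 4 other POU1F1 targets. Within animals 23 to 42, Drd2 had r = 0.243 with Gh1, 0.152 with Tshb and 0.0494 with Cga, against -0.368, -0.474 and -0.444 within animals 1 to 22. The summed intensity of the gonadotroph list ran from 17522 to 55828 over the animals, that of the thyrotroph list from 4509.7 to 26463, and that of the somatotroph list from 17762 to 54145. The part of these cells in the spread of Drd2 was not tested.

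Several markers of non-hormonal cells were also called on Drd2, in both directions, beside 38.5% of all probe sets. The folliculostellate list gave 3 lower of 6, with Anxa1, the gene of annexin A1, at r = -0.754; -0.687 without animal 43, and the endothelial list gave Emcn (-0.708) and Tek (-0.694) of 4. Of 9 macrophage and leukocyte genes, 4 were lower, among them Csf1r (-0.621) and C1qa (-0.564), and Mrc1 was higher (0.431). Dcn, which encodes the matrix proteoglycan decorin, was lower (-0.618) of 3 fibroblast genes, as were Hbb and Alas2 of 3 erythroid genes (-0.499 and -0.407). Among 3 neural genes Nefl was lower (-0.709) and Mbp higher (0.640). Pcsk2, the tested gene of the corticotroph and melanotroph list, was higher (0.492). Proliferation genes gave 3 higher and 1 lower of 18, namely Ccna2 (0.615), Mcm6 (0.562) and Mcm4 (0.369) against Pcna (-0.695), and 1 higher and 1 lower without animal 43. Without animal 43 the calls of Hbb, Alas2 and Pcsk2 were lost (r = -0.302, -0.314 and 0.342; adjusted p = 0.151, 0.132 and 0.0971), as were those of Ccna2 and Mcm6 (r = 0.269 and 0.313). With the step regressed out Hbb, Alas2, Pcsk2, Mrc1, Mcm4 and Mcm6 were not called. Anxa1, Emcn, Tek, Csf1r, C1qa, Dcn, Nefl and Pcna, lower with Drd2, and Mbp, higher with it, were called in both of these settings. No setting left animal 43 out and regressed the step out together. Within animals 1 to 22, Emcn, Dcn and Tek had r = -0.730, -0.575 and -0.634. Within animals 23 to 42 they had 0.115, 0.160 and -0.165. The others lower with Drd2 had r from -0.556 to -0.360 within animals 23 to 42, and Mbp had 0.495. The summed intensity over the animals was 1961 to 4443 for the folliculostellate list, 2676 to 4231 for the endothelial list and 12568 to 25415 for the macrophage list. Their part in the result was not tested.

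On Pou1f1, 6013 of 15520 probe sets were called (38.7%), 2538 higher (16.4%) and 3475 lower (22.4%). Of the 6 probe sets of the other 4 genes, 3 were called: Drd2, Prl, and the Prlr set 1370789_a_at, which was higher with Pou1f1 (r = 0.379, rho = 0.346, limma adjusted p = 0.0310). For that Prlr set r was 0.430 without animal 43 (adjusted p = 0.0307) and 0.491 under quantile normalization (adjusted p = 0.00529, with 30% of all called). It was not called with the step (adjusted p = 0.0972, 32.5% of all called) or the trend (0.502, 22.5%) regressed out. The brightest Prlr set had r = 0.207 with Pou1f1. Without animal 43, 2425 probe sets were called (15.6%), 2226 of them among the 6013. Most like Pou1f1 were Smim15 (r = 0.856), Snrpb2, of the U2 spliceosomal particle (0.854), Emc2, of the endoplasmic reticulum membrane complex (0.847), Ift80, of intraflagellar transport (0.841), and Pnrc2, of mRNA decay (0.838). The lowest r were those of Sec16a (-0.869), which organises endoplasmic reticulum exit sites, and Rrbp1 (-0.843), a ribosome-binding protein of that organelle. Rgp1 (-0.840), a partner in the exchange factor of Rab6, Sidt2 (-0.830) and Vgf (-0.829), a secreted neuroendocrine protein, followed. Without animal 43 the 5 highest had r from 0.739 to 0.775 and the 5 lowest from -0.806 to -0.722. All 10 were called there and with the step or trend regressed out.

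Among the 4 other POU1F1 targets, Gh1 (r = 0.502; 0.454 without animal 43) and Tshb (0.494; 0.424 without animal 43) were higher with Pou1f1, and the median r of the list was 0.288 against -0.0643 over all probe sets tested. Neither Gh1 nor Tshb was called with the step regressed out (adjusted p = 0.0576 and 0.0590). Of all probe sets, 38.7% were called on Pou1f1, and 15.6% without animal 43. Trhr, the receptor for thyrotropin-releasing hormone, was higher (0.447), and among somatotroph genes Sstr2 was lower (-0.366). Dopamine receptor and Gi signalling gave 3 higher and 6 lower of 18. Adcy6 (r = -0.773; -0.658 without animal 43) and Drd4 (-0.639; -0.508 without animal 43) were lower, as was Gnai2 (-0.584), and the potassium channel gene Kcnj5 was higher (0.503; 0.572 without animal 43). Adcy6 and Drd4 were thus lower with Pou1f1 and higher with Drd2 in the same animals. Since Drd2 and Pou1f1 themselves had r = -0.699 over these 43 animals, the opposite signs are not a separate result. Prolactin receptor signalling gave 1 higher and 6 lower of 10, with Pias3 (-0.512), Ptpn11 (-0.528), Grb2 (-0.498) and Socs7 (-0.475) among the latter. Without animal 43 none of the 10 was called by limma, and these 4 had r from -0.266 to -0.156 and adjusted p from 0.280 to 0.547. Of 4 renin-angiotensin genes, Atp6ap2 (0.723; 0.675 without animal 43), Agtr1a (0.379) and Enpep (0.370) were higher, of which only Atp6ap2 was called without animal 43. Other receptors gave 2 higher, Tgfbr1 and Trhr, and 3 lower of 12, led by Fgfr1 (-0.744; -0.565 without animal 43). Six6 (-0.565) and Pitx1 (-0.403) were lower and Nr5a1 was higher (0.498) of 6 lineage factors. The calls of Six6 and Pitx1 were lost without animal 43 (r = -0.276 and -0.0859; adjusted p = 0.223 and 0.761), as were those of Trhr, Sstr2 and Gnai2 (r = 0.356, -0.106 and -0.352; adjusted p = 0.0820, 0.686 and 0.0897).

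Several markers of other cells were called on Pou1f1, in both directions, beside 38.7% of all probe sets. The genes called higher included Cga, Nr5a1 and Fshb of 5 gonadotroph genes (r = 0.537, 0.498 and 0.427), Anxa1, S100b and Fxyd1 of 6 folliculostellate genes (0.630, 0.531 and 0.374), Emcn and Tek of 4 endothelial genes (0.713 and 0.568) and Dcn of 3 fibroblast genes (0.593). The macrophage list gave 2 higher, Csf1r (0.438) and C1qa (0.369), and 2 lower, Mrc1 (-0.474) and Cd68 (-0.473), of 9. The neural list gave Nefl higher (0.513) and Mbp lower (-0.620), the corticotroph list Pcsk2 lower (-0.496) and the erythroid list 0 of 3. Proliferation genes gave 2 higher, Pcna (0.713) and Rrm1 (0.376), and 3 lower, among them Mcm6 (-0.563) and Ccna2 (-0.541), of 18. Only Pcna of this list was called without animal 43 (r = 0.504). Fxyd1, C1qa and Pcsk2 were not called without animal 43 either (r = 0.377, 0.172 and -0.354; adjusted p = 0.0645, 0.473 and 0.0824). With the step regressed out Nr5a1, Fshb, Csf1r, Mrc1, Fxyd1, C1qa and Pcsk2 were not called. Cga, Anxa1, S100b, Emcn, Tek, Dcn, Nefl and Pcna, higher with Pou1f1, and Mbp and Cd68, lower with it, were called in both settings. No setting left animal 43 out and regressed the step out together. The part of these markers in the relation of Pou1f1 and Drd2 was not tested.

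On Agtr1b, 393 of 15521 probe sets were called (2.53%), 183 higher (1.18%) and 210 lower (1.35%), and 0 of the 7 probe sets of the other 4 genes. Most like Agtr1b was Hdac11, a histone deacetylase gene (r = 0.699, limma adjusted p = 0.000896), followed by Commd10 (0.657), the phosphatase gene Ctdsp1 (0.603), Mtmr10 (0.600) and Zfp617 (0.597). Lowest were Aldh1l2, a mitochondrial enzyme of folate metabolism (r = -0.702, adjusted p = 0.000896), the flippase gene Atp10d (-0.659), the potassium channel gene Kcnq5 (-0.659), the amino acid transporter gene Slc38a5 (-0.633) and the acid-sensing channel gene Asic1 (-0.629). The calls were lost with the step or trend regressed out, and nearly all of them without animal 38. By limma, 0 probe sets (0.0%) were called with the step regressed out (909 at an unadjusted p under 0.05) and 0 with the trend (993). Without animal 38 only 2 were (0.0129%), Hdac11 (adjusted p = 0.0468) and Kcnq5 (0.0405). The correlations themselves changed less there: the 5 highest had r from 0.518 to 0.637 and the 5 lowest from -0.633 to -0.540. Without animal 43 the count was 656 (4.23%), of which 391 were among the 393. Within animals 1 to 22 and animals 23 to 43, Agtr1b had r = 0.339 and 0.658 with Hdac11, 0.581 and 0.568 with Commd10, -0.458 and -0.572 with Aldh1l2, and -0.605 and -0.365 with Kcnq5.

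The list genes that follow were called on Agtr1b beside 2.53% of all probe sets. Tshb (r = 0.563) and Gh1 (0.537), 2 of the 4 other POU1F1 targets, were higher with Agtr1b. So were Fshb (0.489) of 5 gonadotroph genes, Dcn (0.580) of 3 fibroblast genes and Kcnj5 (0.493) of 18 dopamine receptor and Gi signalling genes. Of 18 proliferation genes Mki67 (-0.533) and Cdk1 (-0.471), both of dividing cells, were lower, with rho = -0.331 and -0.362. Their r was -0.358 and -0.314 without animal 38, and within animals 1 to 22 Mki67 had r = 0.133. None of these 7 genes was called with the step or trend regressed out or without animal 38. Tshb had r = 0.275 within animals 1 to 22 and 0.246 within animals 23 to 43, and Gh1 0.315 and 0.163. No gene of the other lists was called, the 4 renin-angiotensin genes and the 10 of prolactin receptor signalling included; Agt, Ace and Agtr2 did not pass the filter. The plot of receptor partners shows the numbering of the animals beside these relations.

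**Figure D5:**
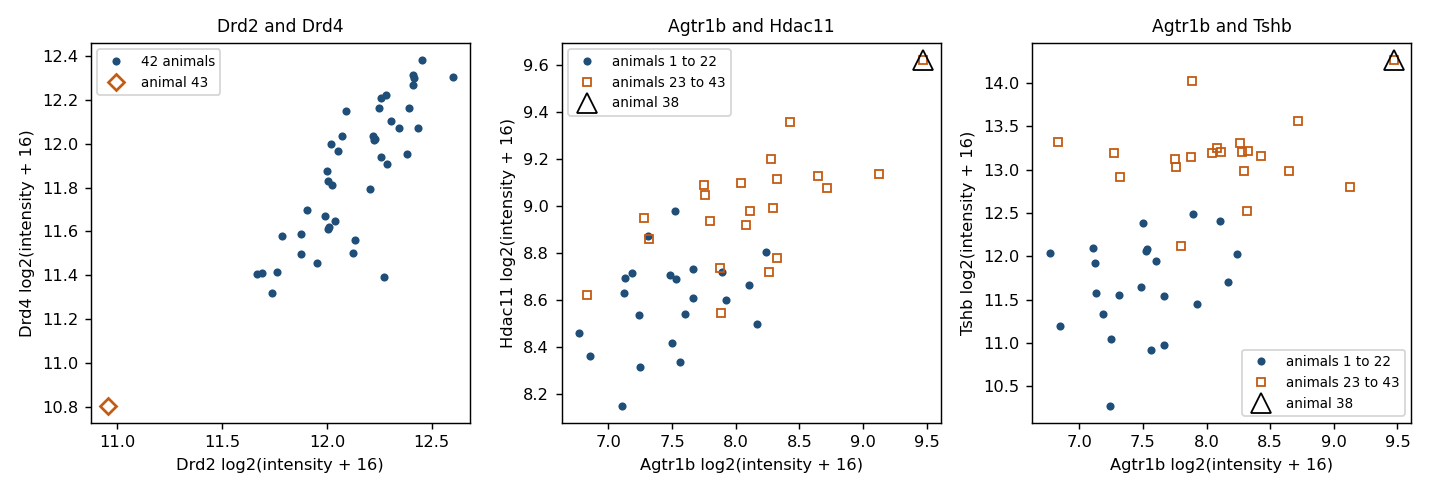
Drd4 against Drd2 (left), and Hdac11 (middle) and Tshb (right) against Agtr1b, all as log2(intensity + 16), 1 point per animal. Drd4 follows Drd2 with animal 43 (diamond) at the low end (r = 0.852), while in the right plot Tshb lies between 10.28 and 12.49 in animals 1 to 22 (filled) and between 12.12 and 14.27 in animals 23 to 43 (squares), and animal 38 (triangle) is highest in Agtr1b.

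On Prlr 1370384_a_at, 0 of 15519 probe sets were called by limma (0.0%; 1414, or 9.11%, at an unadjusted p under 0.05). The highest r were those of Eps15, an endocytic adaptor gene (0.602), and Rb1, the retinoblastoma gene (0.537), and the lowest those of Lix1l (-0.634) and Snx21 (-0.565). Among the 10 genes with the most extreme r, the lowest limma adjusted p was 0.307. Of the genes of its own signalling list, 10 were tested with a median r of -0.145 against -0.00866 over all probe sets; Cish, Socs1 and Socs2, targets of STAT5, were below the filter. On simulated data of this size, made for the regression on Agtr1b, 99% of slopes of 1 SD were recovered and 32% of slopes of 0.5 SD. The simulated probe sets varied independently of each other with normal noise, and no regression on Prlr was simulated. These shares therefore do not tell what the regression on Prlr could have missed.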

How the data were processed

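RNA of 43 anterior pituitaries was hybridised to 43 1-colour Affymetrix arrays, 1 per animal. The authors deposited 1 linear intensity per probe set and array. How the probes of a set were summarised is stated in none of the sources. They had scaled the values: the mean without the lowest and highest 2% lay between 500.0 and 501.0 on every array. No arrays were identical. The scaling was kept, and log2(intensity + 16) was computed. The number of animals limits precision, and the SD includes technical error, since no animal had 2 arrays.

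Of 31099 probe sets, 57 were controls, 20826 others had 1 symbol in the platform annotation, 436 several and 9780 none. The probe set with the highest mean log2 represented a gene. Non-control probe sets above the median mean log2 (15521) were tested, with every member probe set. Pairs of genes were tested with 100000 permutations, and regressions were fitted with limma 3.58.1 (R 4.3.3), both with Benjamini-Hochberg adjustment at 0.05. Genes named are all members, the 5 with the highest and 5 with the lowest r per member, and up to 4 called genes per list and regression with the largest moderated t; genes named for not passing the filter, and Gh1 beside Prl, were added afterwards. The members, the 18 lists (228 entries) and the step between animals 22 and 23 were chosen with earlier results of these data known. Animal 43 was set apart for Drd2 by the mixture criterion. Step, trend and array quality were fitted over all 43 animals before it was left out of the pairs with Drd2. Alternatives were pseudocounts of 1 and 64, quantile normalization, array medians, animals 43 and 38 left out, means over the probe sets of a gene, the step, a spline with 6 degrees of freedom over animal numbers, array quality (3′ minus 5′ of actin and GAPDH), no filter and a filter at the 75th percentile. The regression on Agtr1b was tested on simulated data with independent normal noise in each probe set, with 4 false calls. Promoter sequences came from RefSeq (GRCr8). Genotypes and weights were not used here.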

Additional observations from a re-analysis of the deposited data

How the results depend on the processing

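Of the 10 relations between the 5 genes under 10 alternatives, 93 of the values stayed, by Pearson r, on their side of the threshold of adjusted p 0.05. The relation of Prl and Pou1f1 (r = 0.462) did not: quantile normalization turned it to -0.242, and it no longer passed without animal 43 (0.168), with the step between animals 22 and 23 (0.402), with the trend over animal numbers (0.302) or with array quality (0.328) regressed out. The relation of Drd2 and Pou1f1 was lost with array medians subtracted (-0.368), and that of Prl and Prlr passed (0.378) when the probe sets of each gene were averaged. Of the Prlr probe sets in that average, 1369493_at, which did not pass the filter, had r = 0.383 with Prl. The brighter 1370384_a_at and 1370789_a_at had r = 0.0799 and 0.184. The causes of these changes were not tested. The count of 93 includes pairs that had not passed at first, where the sign could turn. Drd2 and Agtr1b had r = -0.222, and 0.116 with the step regressed out. Pairs with Drd2 left animal 43 out throughout, so leaving it out could not change their r.

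Counts of probe sets called moved by over 1.5 times as follows. With Prl they were 0 under quantile normalization, 81 without animal 43, 187 with the trend and 83 with array quality regressed out. With Drd2 they were 2457, 2744 and 3879, and with Pou1f1 2425, 3491 and 3965, for the latter 3 settings in the same order. With Agtr1b they were 232 with array medians subtracted, 656 without animal 43, 0 with the step and 0 with the trend regressed out, 135 with no filter, and 2 without animal 38, an alternative chosen after seeing the data. The 25 recomputed mean levels moved by less than 1 SD. No paired analysis was possible because there was 1 group. The brightness of the Prl probe set and the lack of untreated animals limit what these arrays can show for Prl.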
